A study of Mus musculus with 6 samples.

Results

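The genes described here belong to the urokinase plasminogen activator system. They are Plau, Plaur, Plat, Serpine2, Serpinb2 and Lrp1, 6 genes of the 52550 in the deposited table, matched by their symbols, each of which occurs in 1 row. They were chosen with the contrast between the media already known, so their differences between the media are given as a description and carry no test. Messenger RNA was sequenced from macrophages grown out of C57BL/6 mouse bone marrow for 7 days with M-CSF (macrophage colony-stimulating factor) at 25 ng/ml. In the AC CM group (3 samples) the macrophages received medium conditioned by apoptotic chondrocytes. In the C CM group (3 samples) they received medium conditioned by normal chondrocytes. The labels do not state whether replicates are separate animals, cultures or preparations. Errors and p-values therefore cover the spread among these 6 libraries, part of which could be technical. Sex, age, the origin of the chondrocytes, how they were made apoptotic and the length of exposure are not given in the labels either.

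Urokinase, the product of Plau, is a secreted serine protease that cuts plasminogen into plasmin, a broad protease that dissolves fibrin and opens matrix. Its receptor, the product of Plaur, is anchored in the membrane by a lipid and holds urokinase at the cell surface. Tissue-type plasminogen activator, from Plat, does the same cut and acts mainly on fibrin. Serpins inhibit both enzymes, among them PAI-2, from Serpinb2, and protease nexin-1, from Serpine2. Lrp1, a large endocytic receptor of the LDL receptor family, takes up the complexes of protease and serpin. M-CSF is a known inducer of urokinase in mouse macrophages, and all the cultures here were grown in it.

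Urokinase transcripts were the main difference. Plau averaged 461 ± 11.5 CPM (counts scaled to library size, mean ± SD, n = 3) after AC CM and 75.6 ± 7.84 CPM after C CM, a 6.10-fold difference. Serpinb2 was 2.38-fold, Plaur 1.59-fold and Lrp1 1.23-fold higher after AC CM. Plat and Serpine2 averaged slightly lower after AC CM, by 0.43 and 0.23 on the log2 scale. Messenger RNA was measured here and not protein or protease activity. In such bulk samples fewer cells of a type and less RNA per cell cannot be told apart.

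The members' promoters were read from RefSeq (GRCm38.p6), where 4 of the 6 matched: Plaur, Serpine2, Serpinb2 and Lrp1. The 250 bases before the start site of Plaur and of Serpinb2 are shown because these are the members with the next largest differences after Plau, and because both hold the AP-1 motif TGANTCA. That motif was sought on both strands and occurs in 6.75% of the 32851 promoter stretches of this length in the same table. Capitals mark TGANTCA, the Ets motif AGGAAG (in 29.5% of the stretches) and TATAAA (in 12.4%), none of which overlap in these 2 promoters. For Serpinb2 the upstream one of its 2 listed start sites is used.
Plaur, chr7:24462233-24462482, plus strand: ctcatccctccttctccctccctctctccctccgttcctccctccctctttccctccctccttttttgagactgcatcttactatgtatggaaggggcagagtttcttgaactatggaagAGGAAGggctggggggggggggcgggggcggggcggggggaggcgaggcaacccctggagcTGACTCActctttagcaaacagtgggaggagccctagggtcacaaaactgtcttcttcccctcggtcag
Serpinb2, chr1:107511173-107511422, plus strand: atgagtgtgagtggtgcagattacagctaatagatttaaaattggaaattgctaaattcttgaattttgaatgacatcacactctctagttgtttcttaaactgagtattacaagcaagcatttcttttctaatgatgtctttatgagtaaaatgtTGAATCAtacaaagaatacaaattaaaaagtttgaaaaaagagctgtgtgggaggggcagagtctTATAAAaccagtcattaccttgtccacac
The TGANTCA match starts 69 bases before the start site of Plaur and 94 bases before that of Serpinb2. The Plaur stretch is 59.6% G and C, and that of Serpinb2 32.4%, against a median of 52.4% over all promoters in the table. Serpine2 has no TGANTCA and 1 AGGAAG match in its 250 bases, and Lrp1 has neither. The motif TGACGTCA, bound by CREB and ATF factors, matched none of the 4 promoters. A match is a run of letters and not a bound site.

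The transcripts of several members also carry AU-rich stretches, which bind decay factors such as tristetraprolin (Zfp36). In the annotated principal transcript of each member, TATTTAT was sought on the sense strand of the 3′ untranslated region (GENCODE M21). It occurred once each in Plau, Plat and Serpinb2 and not in Plaur, Serpine2 or Lrp1. Over 20573 mouse genes, 25.7% hold it. Of genes whose region is within 25% of the length of that of Plau, 23.1% hold it, and the shares are 19.1% for Plat and 17.3% for Serpinb2. The sites are shown with the motif in capitals.
Plau, chr14:20843317-20843345, plus strand: tctgctattttTATTTATatctattttta
Serpinb2, chr1:107525197-107525225, plus strand: ttttacagtgtTATTTATtgtttatataa
Plat, chr8:22782737-22782765, plus strand: taacactagtaTATTTATattttaatcta
Of the members with the motif, Plau and Serpinb2 were higher after AC CM, while Plat averaged slightly lower with overlapping raw counts. Whether the motif acts on these transcripts was not tested. The pentamer ATTTA occurred 5 times in the region of Serpinb2, and 2 times each in those of Plau, Plaur and Plat.

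Library totals ranged from 70802852 to 80105872 counts after AC CM and from 65630784 to 68852308 after C CM. The filter on low counts kept 17863 genes, with each of the 6 members among them. The macrophage markers Lyz2, Cd68, Csf1r and Adgre1 were abundant in all libraries. Of 10 macrophage markers 1 rose and 4 fell. Csf1r, the receptor for M-CSF, had 2021 ± 84.0 CPM after AC CM and 3317 ± 89.9 CPM after C CM (log2 fold change -0.72, edgeR adjusted p = 4.41e-05). Fibroblast collagen transcripts were abundant too, with Col1a1 at 1316 to 1354 CPM after AC CM and 1665 to 2255 CPM after C CM. Transcripts of neutrophils and granulocyte precursors were scarcer after AC CM, where 9 of 11 tested markers fell and 0 rose. Their summed level was 276 to 286 CPM after AC CM and 1023 to 1149 CPM after C CM. Mmp8 (6.701 CPM after AC CM and 6.745 CPM after C CM) and Retnlg (0.336 and 0.379 CPM) did not pass. Ly6g was at most 0.307 CPM in any library. Other marker lists moved as well: 5 of 6 monocyte, 6 of 7 dendritic, 5 of 6 endothelial and 4 of 6 megakaryocyte markers fell, with 0, 0, 1 and 1 higher. The summed megakaryocyte level was nonetheless higher, at 477 to 509 CPM after AC CM and 306 to 370 CPM after C CM. Pf4, the marker that rose, held most of it. Of 6 tested chondrocyte markers 2 rose and 0 fell. The summed chondrocyte level was 109 to 112 CPM after AC CM and 71.4 to 83.4 CPM after C CM. The part of these transcripts in the members' values was not tested. AC CM replicates 2 and 3 carried liver transcripts, with albumin (Alb) at 38.1, 469 and 971 CPM in AC CM replicates 1, 2 and 3 and at 30.1, 1.32 and 0.254 CPM in C CM replicates 1, 2 and 3. The share of all tested genes past an adjusted p of 0.05 in edgeR's quasi-likelihood test was 26.5%, with 13.3% higher and 13.3% lower after AC CM.

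Plau, the protease gene (ENSMUSG00000021822.3, chromosome 14, 20836660 to 20843385, plus strand), was counted 32623, 36458 and 35764 times in AC CM replicates 1, 2 and 3. In C CM replicates 1, 2 and 3 it was counted 4410, 5665 and 5143 times. Every AC CM library lay far above every C CM library, and the lowest AC CM library exceeded the highest C CM library by 2.44 on the log2 scale. The log2 fold change was 2.61 (SE 0.09). It ranked 184 from the top among all 17863 tested genes, and 39 among the 11052 with a mean of at least 5 CPM. The AC CM libraries were also close to each other, with a coefficient of variation of 2.50% against 10.4% in the C CM libraries.

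Plaur, the receptor gene (chromosome 7, 24462484 to 24475968, plus strand), had 36.6, 34.1 and 31.1 CPM in AC CM replicates 1, 2 and 3, against 24.3, 19.4 and 20.5 CPM in C CM replicates 1, 2 and 3. The groups did not overlap, but the gap between the nearest libraries was only 0.36 on the log2 scale. Its log2 fold change was 0.67 (SE 0.11). Receptor and ligand transcripts were therefore both higher after AC CM, by unequal amounts. Per kb of exon, Plau exceeded Plaur 15.1 ± 0.99-fold after AC CM and 3.97 ± 0.84-fold after C CM (SD, n = 3 each), and by the length of the principal transcript in place of all exons 8.76 ± 0.579-fold after AC CM and 2.31 ± 0.488-fold after C CM. Neutrophils are a known source of the receptor. The part of the lower neutrophil and granulocyte precursor markers in the Plaur value was not tested.

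Plat, the gene of tissue-type activator (chromosome 8, 22757727 to 22782844, plus strand), was scarce. AC CM replicates 1, 2 and 3 held 313, 313 and 271 of its counts, against 312, 338 and 420 in C CM replicates 1, 2 and 3. The raw counts of the groups overlapped, and after scaling the gap between the nearest libraries was 0.10 on the log2 scale. Its log2 fold change was -0.43 (SE 0.18), and C CM replicate 3 was the highest library. Per kb of exon, Plau was 310 ± 36.7 times as abundant as Plat after AC CM and 37.9 ± 5.98 times after C CM (SD, n = 3 each). By transcript length it was 127 ± 15.0 times as abundant after AC CM and 15.5 ± 2.45 times after C CM, so urokinase was the main plasminogen activator transcript in both groups by either length.

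**Figure D1:**
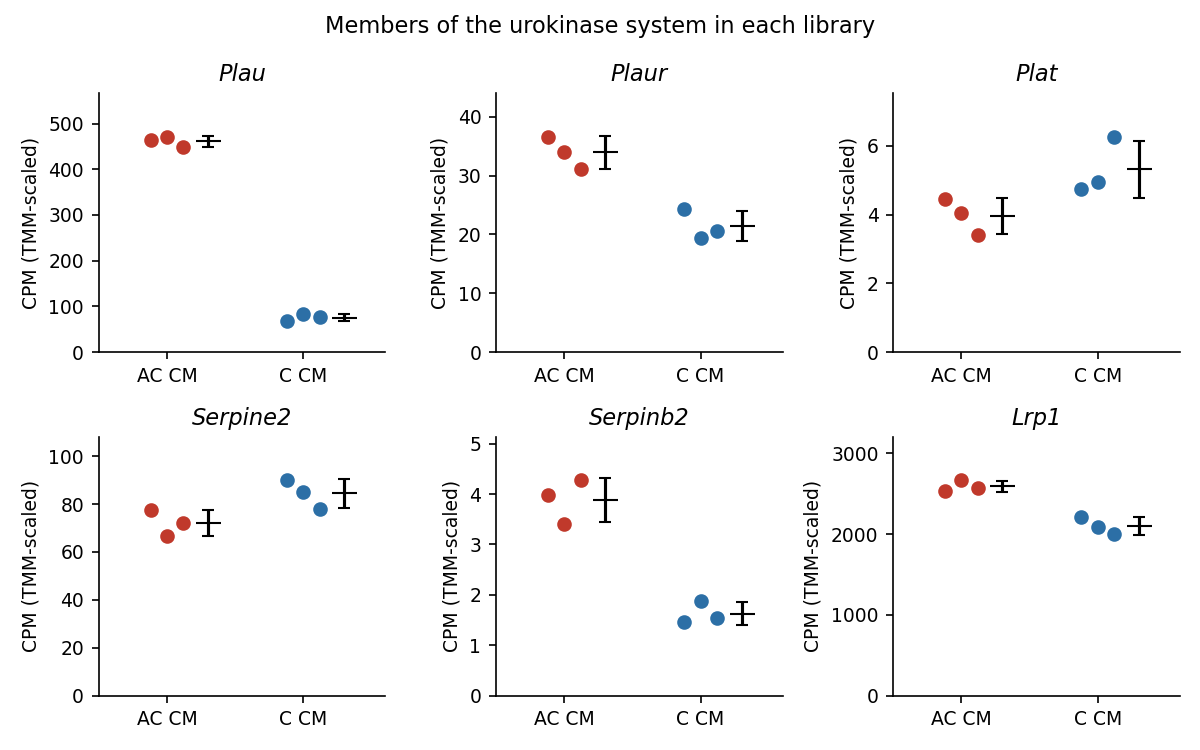
CPM of each member in each library (points) with the mean and SD of 3 libraries (bars), AC CM on the left and C CM on the right of each panel, each axis starting at 0. Plau sits between 449 and 471 CPM in the AC CM libraries and between 67.3 and 82.8 CPM in the C CM libraries, while the Serpine2 and Plat groups nearly touch.

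The inhibitor genes among the members differed in direction. Serpinb2, the PAI-2 gene (chromosome 1, 107511423 to 107535478, plus strand), was counted 280, 264 and 341 times in AC CM replicates 1, 2 and 3, against 96, 129 and 103 times in C CM replicates 1, 2 and 3. The groups did not overlap, and after scaling the log2 fold change was 1.25 (SE 0.20). The level stayed low, at 3.89 ± 0.438 CPM after AC CM and 1.63 ± 0.225 CPM after C CM (SD, n = 3 each). Serpinb10 overlaps Serpinb2 on the same strand, and its own level was 0.618 CPM after AC CM and 0.750 CPM after C CM.

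Serpine2, the nexin-1 gene (chromosome 1, 79794197 to 79861180, minus strand), had 77.6, 66.5 and 72.0 CPM in AC CM replicates 1, 2 and 3, against 90.0, 85.2 and 78.1 CPM in C CM replicates 1, 2 and 3. The highest AC CM and the lowest C CM library nearly coincided, with a gap of 0.01 on the log2 scale, and the raw counts overlapped. Its log2 fold change was -0.23 (SE 0.08). Fibroblast markers were lower too: 5 of 8 tested fell and 0 rose, with a summed level of 3474 to 3561 CPM after AC CM and 4253 to 5265 CPM after C CM. Fibroblasts are a known source of Serpine2 and Plat, and the part of the fibroblast transcripts in both values was not tested.

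Lrp1, the clearance receptor (chromosome 10, 127538161 to 127621148, minus strand), had the most counts of the members. It reached 2531, 2670 and 2574 CPM in AC CM replicates 1, 2 and 3, against 2214, 2091 and 1998 CPM in C CM replicates 1, 2 and 3. The groups did not overlap, with a log2 fold change of 0.30 (SE 0.06). The noncoding gene Gm16217 overlaps it on the other strand, at 0 CPM after AC CM and 0.0254 CPM after C CM.

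**Figure D2:**
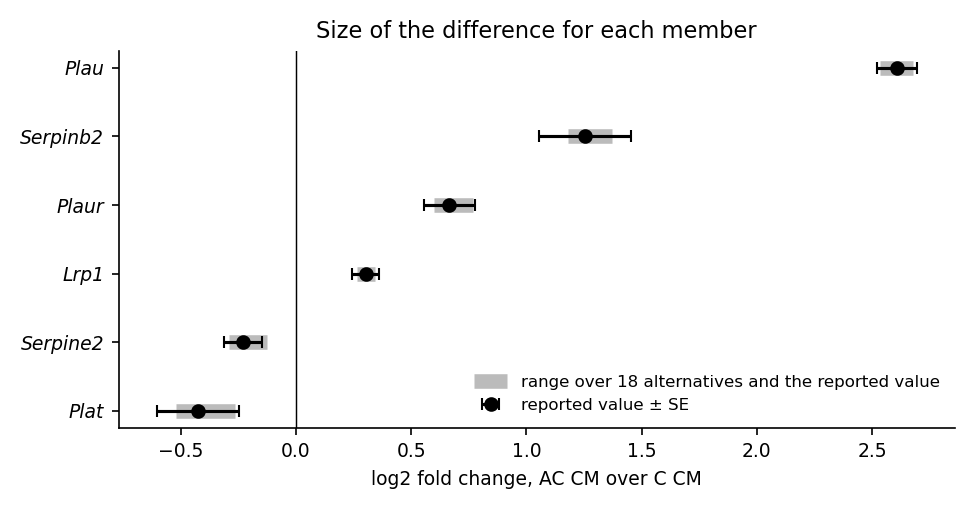
Log2 fold change of each member, AC CM over C CM (points, with SE), and the range it took over 18 other ways of processing the counts (grey). Plau ranged from 2.53 to 2.68 and each member kept its sign.

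In the fit across all genes 4 of the 6 members were past an adjusted p of 0.05, all higher, where 26.5% of all genes were past it. With scaled counts the groups did not overlap for 6 of the 6 members, which held for 44.7% of all tested genes. Of these 6, 4 were higher (22.6% of all tested genes were higher without overlap) and 2 lower (22.1%). Since the members were picked on this contrast, nothing is read from either count. The median log2 fold change of the members was 0.48, and that of all tested genes was 0.00. The authors' deposited table gives log2 fold changes of 2.61 for Plau, 1.26 for Serpinb2, 0.67 for Plaur, 0.31 for Lrp1, -0.22 for Serpine2 and -0.42 for Plat.

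Levels between genes were compared as CPM per kb of exon (RPKM, with the union of annotated exons as length). After AC CM the order was Plau (195 ± 4.87), Lrp1 (146 ± 4.03), Plaur (12.97 ± 1.05), Serpine2 (8.69 ± 0.669), Serpinb2 (1.66 ± 0.187) and Plat (0.635 ± 0.0844). After C CM it was Lrp1 (119 ± 6.10), Plau (31.9 ± 3.31), Serpine2 (10.2 ± 0.721), Plaur (8.17 ± 0.975), Plat (0.853 ± 0.132) and Serpinb2 (0.694 ± 0.0959), all as SD with n = 3. The libraries of Plat and Serpinb2 overlapped in level after C CM, and no other neighbours in either order did. By exon length, Plau made up 53.0% to 53.7% of the members' summed RPKM after AC CM and 16.3% to 20.3% after C CM. These shares depend on the length used: with transcript lengths Plau averaged 197 RPKM and Lrp1 174 RPKM after AC CM. The choice of length changes the order for Serpine2, whose exon union of 8287 bases is much longer than its principal transcript of 2210 bases. With transcript lengths Serpine2 averaged 32.6 RPKM after AC CM and 38.2 RPKM after C CM, above Plaur in both groups (22.5 and 14.2 RPKM) and above Plau after C CM (32.3 RPKM). Plau was above Lrp1 after AC CM and below it after C CM by either length.

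**Figure D3:**
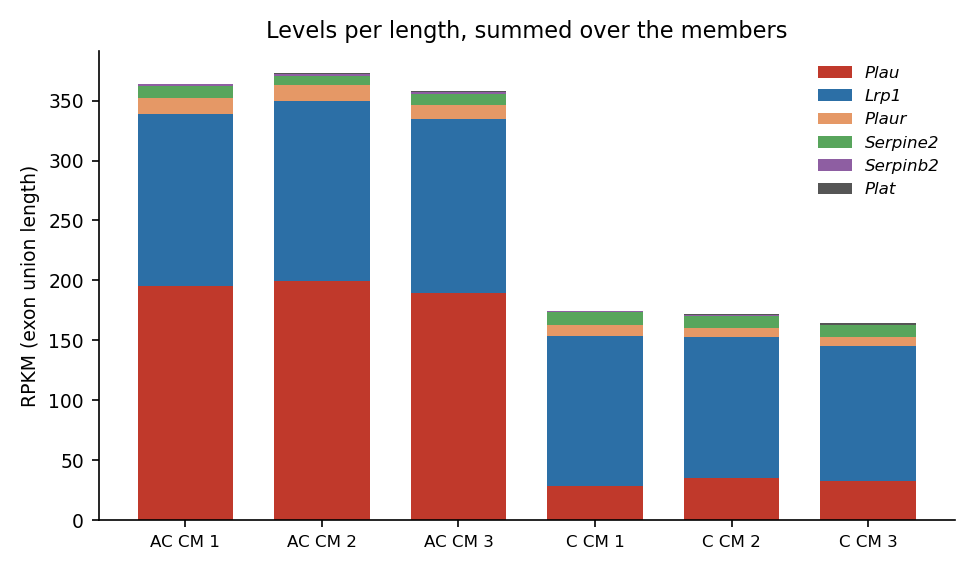
RPKM of the members stacked for each library, AC CM libraries on the left and C CM libraries on the right. The summed level was 358 to 373 RPKM in the AC CM libraries and 164 to 175 RPKM in the C CM libraries, and the Plau segment accounts for most of the gap.

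The other genes of the system were 69 genes in 7 lists, of which 64 were tested. Of these 18 rose and 19 fell after AC CM. That is 57.8% past the threshold beside 26.5% of all tested genes and 34.6% of those with a mean of at least 5 CPM. Some of the listed genes have a lower mean. The lists were chosen with earlier results of these data known, so nothing is read from this share. The median log2 fold change was -0.06 over the lists.

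Plasminogen transcripts were scarce. Plg had 0.681, 8.48 and 16.2 CPM in AC CM replicates 1, 2 and 3, against 0.320, 0 and 0 CPM in C CM replicates 1, 2 and 3. It did not pass the test (edgeR adjusted p = 0.0764, with 0.0140 to 0.483 over the alternatives) and was high in the same 2 libraries as albumin. It passed without robust estimation, with DESeq2 (adjusted p = 0.0358) and without AC CM replicate 1 (adjusted p = 0.0337). Outside the members, 6 inhibitors of activators or plasmin were tested, of which 2 rose and 2 fell. Serping1 fell by 0.38 on the log2 scale (edgeR adjusted p = 0.0267). Its level was 32.1 ± 2.94 CPM after AC CM and 41.9 ± 4.50 CPM after C CM. The Serping1 call was lost without AC CM replicate 1 or 2 and without C CM replicate 1 or 3. The plasmin inhibitor gene Serpinf2 (0.823, 4.05 and 6.82 CPM after AC CM, against 0.244, 0 and 0 CPM after C CM) and the carboxypeptidase gene Cpb2 (0.199, 1.42 and 1.30 CPM after AC CM, against 0.0763, 0 and 0 CPM after C CM) were called higher, with edgeR adjusted p = 0.0495 and 0.0125. The Serpinf2 call was lost with the replicate number as a block, with upper quartile scaling, without a filter, with limma-voom and without AC CM replicate 2 or 3 or any C CM replicate (adjusted p of up to 0.341 over the alternatives). The Cpb2 call was lost with the block and without AC CM replicates 2 and 3 (adjusted p of up to 0.494). Like Hgfac, the gene of an activator of pro-HGF, they are known liver genes with their highest levels in AC CM replicates 2 and 3. The Hgfac call was lost with limma-voom and without AC CM replicate 3 or any C CM replicate. Of the 12 hepatocyte markers 11 were tested, 1 rose and 1 fell, with 0 to 8 higher over the alternatives, 7 of them under DESeq2 and 8 without robust estimation. None was at 0 in all 6 libraries, and the summed level of the markers was 357 to 1858 CPM after AC CM and 516 to 598 CPM after C CM, where Trf held most of it. The part of the liver transcripts in these values was not tested. The membrane proteases Hpn and St14 fell by 1.15 (SE 0.32) and 1.11 (SE 0.35) on the log2 scale, but the Hpn call was lost without AC CM replicate 2 or C CM replicate 1 or 2, and the St14 call without a filter, without robust estimation and without AC CM replicate 2 or 3 or any C CM replicate (edgeR adjusted p of up to 0.0812 and 0.349).

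Of 13 partners of the urokinase receptor, 5 rose and 3 fell. The vitronectin receptor chains moved in opposite directions: Itgav rose by 0.66 (131 ± 2.08 CPM after AC CM and 82.5 ± 5.46 CPM after C CM) while Itgb3 fell by 1.78 on the log2 scale (8.69 ± 1.10 CPM after AC CM and 29.9 ± 2.78 CPM after C CM). The common chain Itgb1 rose by 0.44 and Igf2r, a receptor that binds the urokinase receptor, by 0.54. The collagen receptor Mrc2 fell by 0.50 on the log2 scale. The chains of Mac-1, a known signalling partner, did not pass, with Itgb2 at -0.13 (SE 0.06) and Itgam at -0.64 (SE 0.46), where Itgam varied from 171 to 525 CPM within AC CM. Of 5 plasminogen receptors, S100a10 rose by 0.44, Plgrkt fell by 0.50 and Hmgb1 fell by 0.42 on the log2 scale. Anxa2, the partner of S100a10, and Eno1 did not pass.

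Genes around Lrp1 changed in both directions, with 4 of 14 higher and 4 lower. Dab2, an endocytic adaptor of the LDL receptor family, rose to 1726 ± 65.1 CPM after AC CM, against 727 ± 72.2 CPM after C CM (log2 fold change 1.25, SE 0.08, edgeR adjusted p = 1.36e-05). Lrp12 rose by 1.03. The sorting receptors Sorl1 and Sort1 fell by 1.20 and 1.11 on the log2 scale, and the Wnt coreceptor Lrp6 fell by 0.46. The Lrp1 chaperone gene Lrpap1 was at -0.13 (SE 0.06) and did not pass.

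Among 7 tested precursors that plasmin or urokinase can activate, 4 fell and 0 rose. The macrophage elastase gene Mmp12 had 59.7 ± 6.91 CPM after AC CM and 226 ± 45.8 CPM after C CM (log2 fold change -1.92, SE 0.15). The gelatinase gene Mmp9 had 8.50 ± 1.04 CPM after AC CM and 27.3 ± 2.29 CPM after C CM (log2 fold change -1.68, SE 0.13). Neutrophils also carry Mmp9. The part of the lower neutrophil and granulocyte precursor markers in the Mmp9 value was not tested. Mmp14 fell by 0.50 and Hgf by 0.81 on the log2 scale, while Tgfb1 was at -0.02 (SE 0.11) and Mmp13 at 0.19 (SE 0.18). Plau was thus higher in the same libraries in which these protease transcripts were lower.

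The urokinase gene is known to be driven from an upstream enhancer with adjoining Ets and AP-1 elements, and its RNA is known to be short-lived. Of 14 factors of these kinds, 5 rose and 2 fell. Etv5 rose by 2.71 (195 ± 2.08 CPM after AC CM and 29.9 ± 2.69 CPM after C CM), Ets2 by 1.21, Fos by 0.81 and Jun by 0.72. The other listed Ets and AP-1 factors apart from Junb did not pass. Their log2 fold changes were -0.74 for Ets1 (SE 0.39), -0.67 for Fosl1 (SE 0.23) and -0.21 for Etv4 (SE 0.27). Those of Jund, Fosl2 and Atf2 were -0.17 (SE 0.20), -0.12 (SE 0.07) and 0.19 (SE 0.10). Among these factors, Fosl1 passed under 4 of 18 alternatives and Ets1 under 1. Junb fell by 0.58 on the log2 scale, a call lost without AC CM replicate 2 or 3 (edgeR adjusted p of up to 0.264 over the alternatives). Of the RNA decay factors Zfp36l1 fell by 0.83 on the log2 scale. Zfp36 was at -0.25 (SE 0.08, edgeR adjusted p = 0.0556) and passed under 6 of 18 alternatives. The stabilising factor Elavl1 rose by 0.36. Whether any of the listed factors acts on the members was not measured.

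**Figure D4:**
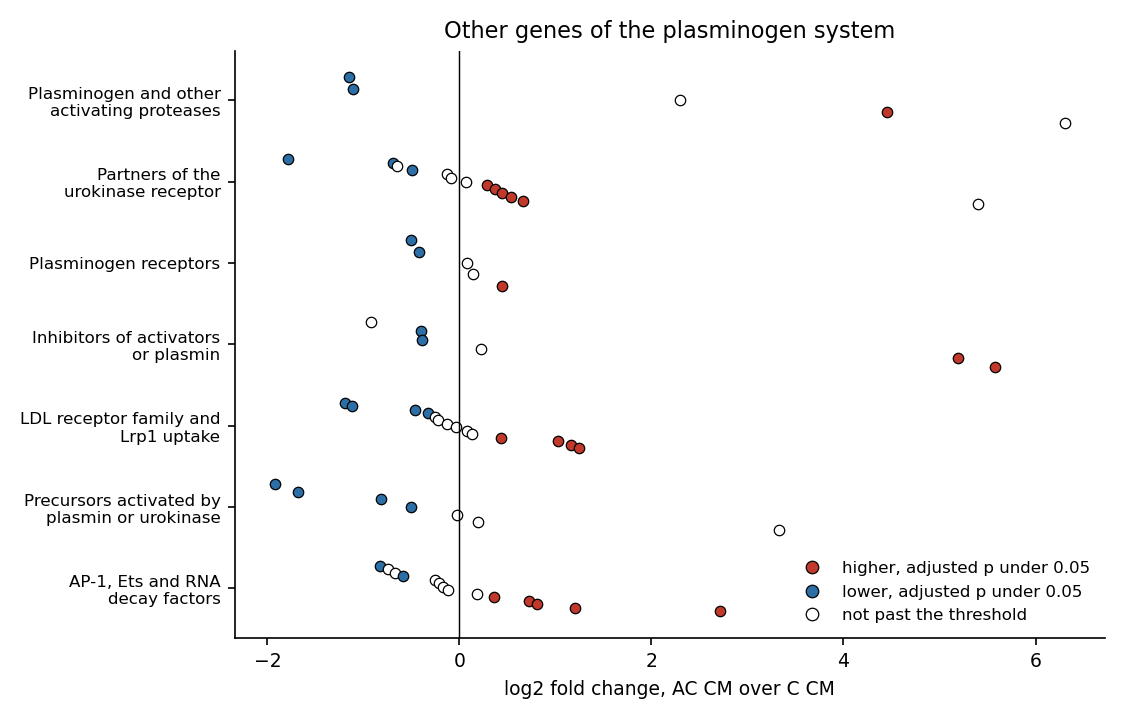
Log2 fold change, AC CM over C CM, of each tested gene in the 7 lists, filled where the edgeR adjusted p was under 0.05. The points beyond 2 on the right in the rows of activating proteases, receptor partners, inhibitors and activated precursors are known liver genes at or below 16.2 CPM, and the factor gene at 2.71 in the lowest row is Etv5.

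Within 100 kb of the 6 members lie 42 other genes, of which 27 were tested, 3 rose and 3 fell. That is 22.2% past the threshold, beside 26.5% of all tested genes. None of the 3 tested neighbours of Plau passed, with Camk2g at 0.25 (SE 0.11) and Vcl at -0.06 (SE 0.06). Beside Plaur the potassium channel gene Kcnn4 rose by 1.31 (SE 0.11, edgeR adjusted p = 6.50e-05), to 149 CPM after AC CM against 60.0 CPM after C CM, while Irgq fell by 0.33 on the log2 scale. Beside Serpinb2, its paralog Serpinb8 rose by 1.61 (SE 0.36, edgeR adjusted p = 0.0210), a call lost with the replicate number as a block and without C CM replicate 1 or 3 (adjusted p of up to 0.115 over the alternatives). Wdfy1 rose by 0.50 beside Serpine2, and beside Lrp1 Nab2 and Gm16229 fell by 0.58 each on the log2 scale. The calls were lost without AC CM replicate 2 for Irgq and Nab2, without AC CM replicate 3 for Irgq and Gm16229, and without AC CM replicate 1 or C CM replicate 1 or 2 for Gm16229 (edgeR adjusted p of up to 0.321, 0.200 and 0.0757 for Irgq, Nab2 and Gm16229).

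The genes nearest in pattern were sought by the root mean square distance between centred log2 CPM over the 6 libraries, among 10292 genes with a mean of at least 5 CPM. Nearest to Plau were the cyclin gene Ccnd1 (distance 0.05), and the Ets factor genes Etv5 (0.05) and Etv1 (0.08). Ccnd1 had a log2 fold change of 2.59 and Etv1 of 2.53. Nearest to Serpinb2 were Eef1e1, Cdca7l and Cep41, at distances of 0.08, 0.08 and 0.10, with log2 fold changes of 1.16 to 1.19. Nearest to Plaur were Ccdc59, Syngr1 and Fbxl4, at 0.04 to 0.06. Lrp1 lay nearest to Inppl1, Rbmxl1 and Pus1, Serpine2 to Cib1, Limd1 and Mpdu1, and Plat to Tmem87a, Ift80 and Bbs9. With 6 libraries in 2 groups, such a distance mainly reflects the size of the difference between the media.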

How the data were processed

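RNA-seq of 3 AC CM and 3 C CM samples was analysed from 1 deposited table of 52550 genes. Its read counts per gene were deposited by the authors without normalization; its normalized signal columns, deposited by the authors, equal the counts divided by a constant per sample. The deposited p-value columns and log2 fold changes hold the authors' own comparison, from which only the members' log2 fold changes were copied. The submitters' processing notes name R 3.4.3, DESeq2 1.18.1, HISAT2 2.1.0 and fastp 0.17.1. For the counting program, strand setting and build nothing is given in the sources used here; 95.2% of the gene identifiers found in GENCODE M21 (GRCm38) had its coordinates.

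Counts were filtered with filterByExpr, TMM-scaled and fitted in edgeR 4.0.16 (R 4.3.3) by quasi-likelihood with robust estimation, on group alone, and p-values were adjusted by Benjamini-Hochberg over 17863 genes. DESeq2 1.42.0 and limma-voom (limma 3.58.1) were among the alternatives. The procedure was tested on simulated counts with known changed genes, the same variability set for each gene and no transcripts particular to a library. That test does not measure the error rate in these data. The deposited length is the genomic span, so exon lengths came from GENCODE M21. Low counts favoured multiples of 4, so counts divided by 4 were an alternative. The members, lists and tests were chosen with earlier results of these data known. Genes named are the members, Plg, up to 5 called genes per list with the smallest p, called neighbours, and the nearest patterns; 1 gene that this takes is not reported here. Junb, Elavl1, Zfp36, Itgam, Itgb2, Anxa2, Eno1, Lrpap1, Tgfb1, Mmp13, Camk2g, Vcl and the overlapping genes were named for their roles or place. Ets1, Etv4, Fosl1, Fosl2, Jund and Atf2 were named to complete the listed Ets and AP-1 factors.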

Additional observations from a re-analysis of the deposited data

How the results depend on the processing

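The log2 fold changes of the 6 members kept their sign and moved by less than the SD between replicates under 18 of 18 alternatives. They ranged from 2.53 to 2.68 for Plau, 1.181 to 1.37 for Serpinb2, 0.60 to 0.77 for Plaur, 0.26 to 0.34 for Lrp1, -0.29 to -0.13 for Serpine2 and -0.52 to -0.27 for Plat. The number of genes called, 4741, was 3158 to 5023 with 1 library left out and 1274 without AC CM replicates 2 and 3, in a fit where the spread comes from the C CM libraries alone and the lone AC CM library is taken to share it. In that fit 14 other plasminogen system genes were called, against 37, and 2 neighbours, against 6. Of 43 called list and neighbour genes, 13 were called under each alternative that tested them, and none changed sign. Whether the replicate numbers pair the samples is not given in the labels. Deviations from the group means had correlations of -0.12, -0.03 and -0.01 between same-numbered replicates, and of -0.05 to 0.08 between others. Such values from 3 libraries per group cannot decide the pairing. With the replicate number as a block 4397 genes were called. Counting noise limits Plat and Serpinb2 most, since they have the fewest counts.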
